A study of Mus musculus with 8 samples.

Results

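Schwann cells are the glia of peripheral nerves, and 7 genes of these cells and of the sympathetic nerve were followed in inguinal white adipose tissue (ING WAT) of C57BL/6j mice: *S100b*, *Sox10*, *Mbp*, *Prx*, *Egr2*, *Ngfr* and *Th*. They were chosen by symbol out of 38364 genes for which transcript values could be summed. Poly(A)+ RNA was sequenced at postnatal day (PN) 21 from the 4 mice m1, m49, m138 and m145. At PN98 the 4 mice were m35, m106, m114 and m125, likewise of this inbred strain and with no other treatment in the labels. Breeders and young received the AIN93G diet until PN42, and from then to PN98 mice received AIN93M or a western style diet. Food was limited in the night before dissection. Which diet the PN98 mice of the sequencing had is not given in the sources used here. The labels give no sex. By the methods of the study, females were killed at PN21 and males were kept, and epididymal fat, a depot of males, was also collected at PN21. The Y-linked gene *Ddx3y* lay between 18.1 and 25.9 FPKM in the 8 mice, and *Xist* was at or below 0.832 FPKM. FPKM is the number of fragments scaled to the length of a transcript and to the mapped fragments of the library, summed here over the transcripts of a gene. The depth of the libraries is unknown, as no counts are in the files. Nothing in the labels says how the 4 mice of an age are related, and p-values measure only the spread between these mice.

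Adipose depots are crossed by nerve bundles that hold axons, myelinating and non-myelinating Schwann cells. SOX10 is the transcription factor that Schwann cells need at every stage, and EGR2 is the factor that switches on the myelin genes. MBP and periaxin (PRX) are proteins of the myelin sheath, NGFR is the low-affinity neurotrophin receptor of immature and non-myelinating Schwann cells, and tyrosine hydroxylase (TH) is the rate-limiting enzyme of noradrenaline synthesis in sympathetic neurons. S100B is a calcium-binding protein long used as a Schwann cell marker that adipocytes also make. It is therefore asked whether *S100b* moved with the Schwann cell genes or with genes of the thermogenic adipocyte such as *Ucp1*, the uncoupling protein.

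Schwann cell transcripts were present in ING WAT at both ages and the 6 members above 0 had a lower mean at PN98, by 1.88 to 4.25-fold. Of the 5 members with a mean FPKM of at least 1, all 5 had a negative log2 fold change, against 67.0% of the 16095 genes tested, and all 5 had an unadjusted p under 0.05, against 19.0% of all genes. With limma and Benjamini-Hochberg adjustment over all genes, *Mbp* alone of these 5 had an adjusted p under 0.05, where 2.94% of all genes were called lower. The median log2 fold change was -1.22 over the 5 members and -0.21 over all genes. Among the 5, *Ngfr* reached the minimum through PN21, with a mean of 2.68 FPKM there and 0.631 FPKM at PN98. The tissue was sequenced in bulk and FPKM is relative to the whole library. Fewer Schwann cells, less RNA per Schwann cell and more RNA from other cells therefore cannot be told apart.

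**Figure D1:**
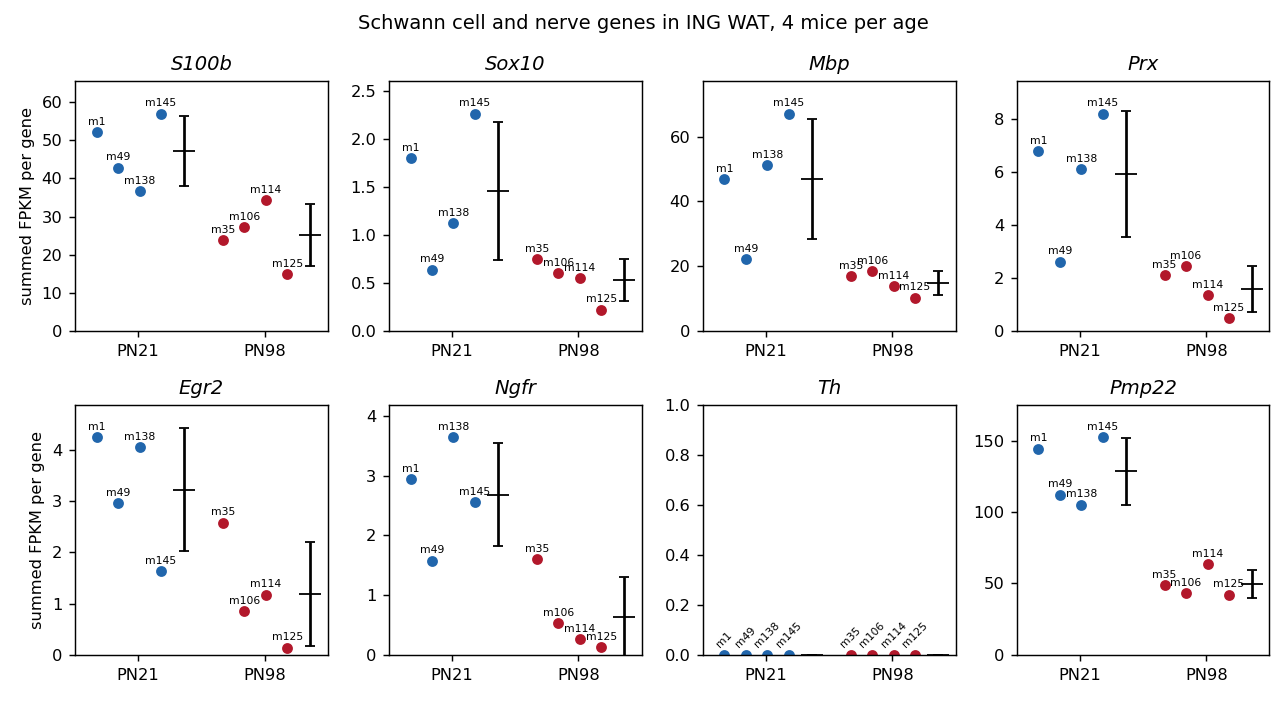
Summed FPKM per gene (linear axis from 0) of the 7 members and of the myelin gene *Pmp22* in each mouse, PN21 in blue and PN98 in red, with the mean and SD of 4 mice beside the points. PN98 mice lie below all PN21 mice for *S100b*, *Mbp*, *Prx* and *Pmp22*, overlap with them for *Sox10*, *Egr2* and *Ngfr*, and *Th* is listed at 0 in all 8 mice. The share of all genes whose ages separate is not given, so that no conclusion is drawn from the separation.

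*S100b* (chr10:76253853-76261159, plus strand, mm10) has a single transcript in the table. It was measured at 52.2, 42.8, 36.6 and 56.9 FPKM in m1, m49, m138 and m145 at PN21, and at 23.9, 27.3, 34.4 and 14.98 FPKM in m35, m106, m114 and m125 at PN98. The highest PN98 mouse, m114, was just below the lowest PN21 mouse, m138, so that the ages did not overlap. Here and for the genes below, such a separation is a description only, as its share over all genes is not given. The mean was 47.2 ± 9.14 FPKM at PN21 and 25.1 ± 8.06 FPKM at PN98 (SD, n = 4), 1.88-fold lower, with p = 0.0286 in a two-sided exact permutation test, the smallest value that 4 against 4 mice allow. Across all genes the log2 fold change of -0.92 (SE 0.27) did not pass, with an adjusted p of 0.0858 by limma. Weighting the mice by limma's arrayWeights gave -0.81 with an adjusted p of 0.0247. With these weights 3492 of 16095 genes were called lower, against 473 without them.

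*Sox10* (chr15:79154908-79165240, minus strand) was expressed at a low level. At PN21 it lay at 1.798, 0.639, 1.13 and 2.26 FPKM in m1, m49, m138 and m145, and at PN98 at 0.746, 0.605, 0.554 and 0.224 FPKM in m35, m106, m114 and m125. The low PN21 mouse m49 fell among the PN98 mice, and without it the ages would not have overlapped. The means were 1.46 ± 0.717 and 0.533 ± 0.221 FPKM (exact permutation test, p = 0.0571). Over all 8 mice the mean of 0.994 FPKM was just under the minimum of 1. Without this minimum the log2 fold change was -0.64 (SE 0.23, limma, adjusted p = 0.177), and none of the 6 members above 0 was called, against 2.06% of 27456 genes called lower. *Egr2* (chr10:67535475-67542188, plus strand) was measured at 4.24, 2.96, 4.05 and 1.63 FPKM at PN21 and at 2.58, 0.857, 1.18 and 0.144 FPKM at PN98, in the same order of mice. Here m145 and not m49 was the lowest PN21 mouse, and m35 was the only PN98 mouse inside the PN21 range (log2 fold change -1.01, SE 0.37, limma, adjusted p = 0.136).

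*Mbp* (chr18:82475146-82585637, plus strand) had 46.8, 22.3, 51.2 and 67.1 FPKM in m1, m49, m138 and m145 at PN21. At PN98 it had 16.9, 18.5, 13.8 and 10.4 FPKM in m35, m106, m114 and m125. The ages did not overlap and the mean fell 3.14-fold, from 46.8 ± 18.6 to 14.9 ± 3.59 FPKM. The log2 fold change was -1.52 (SE 0.34, limma, adjusted p = 0.0437). This call was close to the threshold. It remained without m49 or m35 (adjusted p = 0.0199 and 0.0271) and was lost when any one of the other 6 mice was left out, with adjusted p between 0.0895 and 0.115.

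*Prx* (chr7:27499324-27520214, plus strand) was measured at 6.76, 2.62, 6.09 and 8.18 FPKM at PN21 in m1, m49, m138 and m145. At PN98 it was at 2.115, 2.445, 1.35 and 0.506 FPKM in m35, m106, m114 and m125. The ages did not overlap, although m49 was only slightly above m106, and the adjusted p was 0.0635 for a log2 fold change of -1.40 (SE 0.36, limma). *Ngfr* (chr11:95568818-95587735, minus strand), a receptor rather than a myelin gene, had 2.94, 1.58, 3.64 and 2.56 FPKM at PN21 and 1.60, 0.534, 0.262 and 0.128 FPKM at PN98. Its lowest PN21 mouse, m49, and its highest PN98 mouse, m35, were nearly level, and the other PN98 mice were well below (log2 fold change -1.22, SE 0.30, limma, adjusted p = 0.0551). *Th* (chr7:142892752-142931128, minus strand) has 6 transcripts in the table, all listed at 0 in all 8 mice.

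Leaving out PN98 mouse m35 raised the number of members called lower from 1 to 4, *Mbp*, *Prx*, *Egr2* and *Ngfr*, of 6 that then passed the minimum. The same step raised the calls lower at PN98 over all genes from 473 to 2860, or 17.9%. Without PN21 mouse m49, 2 of 6 members were called, and no member was called without any one of the other 6 mice. Scaling each mouse by the median of ratios brought the median of all genes to -0.02. The log2 fold changes of *S100b*, *Mbp*, *Prx*, *Egr2* and *Ngfr* were then -0.69, -1.30, -1.25, -0.91 and -1.12, all still negative, and *Mbp* and *Ngfr* were called (limma, adjusted p = 0.0465 and 0.0407), where 2.85% of all genes were called lower. Scaling to the summed FPKM of nuclear genes called none of the 5 and 1.67% of all genes lower.

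The windows of 250 bases before the RefSeq starts of *S100b* and *Prx* (GRCm38.p6, both on the plus strand) are shown because they set the gene in question beside a gene of the myelin sheath. Of the 7 members, 5 had an entry in the RefSeq promoter table. The RefSeq start of *S100b* lay 17 bases before that of transcript *S100b-201*, and the RefSeq start of *Prx* was that of *Prx-202*. For neither gene did the bases after the RefSeq start stand unbroken in an annotated transcript. Capitals mark CCAAT on either strand, a motif added to the search after the sequences were seen.
*S100b*, chr10:76253586-76253835: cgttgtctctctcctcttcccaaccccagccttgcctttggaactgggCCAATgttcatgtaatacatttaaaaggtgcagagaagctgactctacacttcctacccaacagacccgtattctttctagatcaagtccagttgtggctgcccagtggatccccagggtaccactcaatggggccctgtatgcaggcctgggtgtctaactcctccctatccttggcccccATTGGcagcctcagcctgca
*Prx*, chr7:27499074-27499323: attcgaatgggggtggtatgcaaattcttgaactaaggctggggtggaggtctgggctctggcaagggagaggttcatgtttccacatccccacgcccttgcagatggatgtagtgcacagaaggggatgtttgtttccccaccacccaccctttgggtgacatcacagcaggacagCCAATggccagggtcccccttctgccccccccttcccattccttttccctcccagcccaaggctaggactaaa
CCAAT stood 202 and 20 bases before the start of *S100b*, the nearer one on the opposite strand, and 73 bases before that of *Prx*, and 33.8% of all 32817 promoter windows held it. The letters ACAAAG and ACAATG, forms of the motif that SOX proteins bind, were in neither window, and 25.2% of all windows held at least 1 of them on either strand. GTGGGCG and GTGGGAG, forms of the EGR motif, were also in neither, against 14.6% of all windows. The *Prx* window lies before transcript *Prx-202*, which held 17.4% of the *Prx* FPKM at PN21 and 10.01% at PN98.

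At the level of single transcripts, compared on log2(FPKM) without a pseudocount, 5 member transcripts were above 0 in every mouse with a mean of over 2 FPKM at one age or the other. None was called after adjustment with limma, where 0.639% of 23174 transcripts were called lower, and 4 had an unadjusted p under 0.05 with a lower level, against 14.8% of these transcripts. The largest of these in level was *S100b-201*, the only *S100b* transcript (log2 fold change -0.95, SE 0.29, adjusted p = 0.148). *Mbp-211* differed by -2.14 (SE 0.46, adjusted p = 0.0762), from 24.6 ± 14.9 to 5.25 ± 2.13 FPKM. *Ngfr-201* differed by -2.64 (SE 0.75) and *Prx-204* by -3.89 (SE 1.65), the latter with 0.00612 FPKM in m35 and 0.3502 to 1.64 FPKM in the other PN98 mice. *Ngfr-201* and *Prx-204* passed the minimum through PN21 alone, where they were higher. Their means were 2.68 and 3.61 FPKM at PN21 and 0.631 and 0.692 FPKM at PN98. The last of the 5, *Mbp-205*, did not follow *Mbp-211*: it had 6.53 ± 1.93 FPKM at PN21 and 7.39 ± 1.68 FPKM at PN98 (log2 fold change 0.20, SE 0.26).

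*Mbp* has 2 groups of transcripts in the table, a division that was made after their values were seen. The 9 transcripts that start between positions 82554463 and 82563262 of chromosome 18 include those of the classic myelin basic proteins, and 1 of them, *Mbp-214*, is annotated as a processed transcript without a protein. The 4 transcripts that start upstream, between 82475146 and 82475370, belong to the golli form of the gene, which is also expressed outside myelin, in immune cells among others. Of these, *Mbp-213* is annotated as subject to nonsense-mediated decay. It had 1.325 FPKM in m1, 3.606 FPKM in m138 and 0 in the other mice, and is part of the upstream sums. Transcripts of the downstream starts summed to 39.3, 16.02, 37.97 and 61.6 FPKM in m1, m49, m138 and m145 at PN21 and to 6.24, 10.6, 7.08 and 4.13 FPKM in m35, m106, m114 and m125 at PN98. Every PN98 mouse was below every PN21 mouse, and the mean was 5.53-fold lower at PN98 (exact permutation test, p = 0.0286). Transcripts of the upstream starts summed to 7.49, 6.24, 13.3 and 5.41 FPKM at PN21 and to 10.7, 7.91, 6.72 and 6.25 FPKM at PN98. These values overlapped throughout, with means of 8.10 ± 3.55 and 7.89 ± 2.00 FPKM (exact permutation test, p = 0.943). The share of *Mbp* FPKM from the downstream starts was 80.5% ± 9.24 at PN21 and 46.3% ± 9.59 at PN98 (SD, n = 4). The log2 ratio between the groups differed by -2.24 between the ages (exact permutation test, p = 0.0286). Cufflinks divides fragments among overlapping transcripts, and the groups share exons, so that these sums are estimates.

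**Figure D2:**
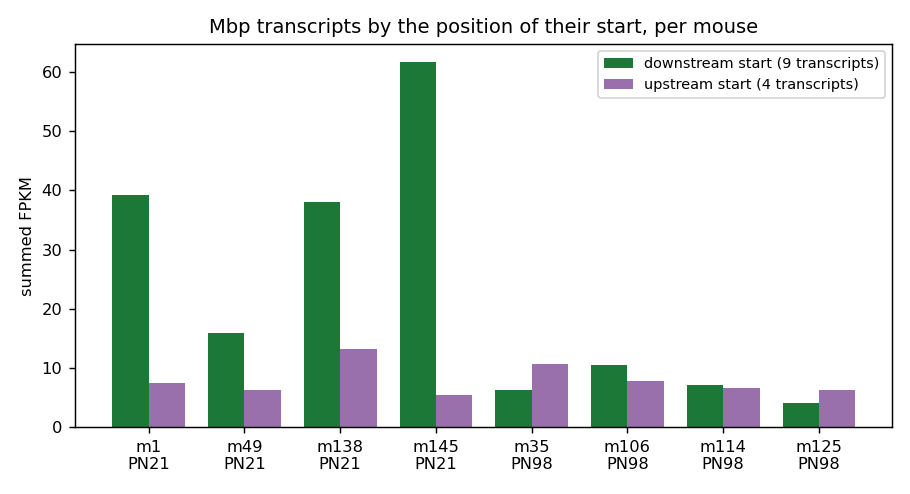
Summed FPKM of *Mbp* transcripts in each mouse (bars from 0), by the position of their start: 9 transcripts with a downstream start in green and 4 with an upstream start in purple. The green bars reach 16.02 to 61.6 FPKM at PN21 and 4.13 to 10.6 FPKM at PN98, while the purple bars stay between 5.41 and 13.3 FPKM at both ages.

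Other genes of the myelin sheath were lower at PN98 as well. The list of myelinating Schwann cell genes had 18 genes other than the members, all in the table and 10 with a mean FPKM of at least 1. Of these 10, 5 were called lower by limma and none higher, and 9 had a negative log2 fold change, with a median of -1.08. The list was chosen with earlier results of these data known, so that it is no independent support. Some of its tested genes reached the minimum through PN21, *Cldn19* and *Mag* among them. Their means were 2.05 and 1.60 FPKM at PN21 and 0.355 and 0.455 FPKM at PN98. Of all genes tested, 2.94% were called lower and 67.0% had a negative log2 fold change, with a median of -0.21. *Pmp22*, a membrane protein of compact myelin that other cells also express, was measured at 144.5, 112, 105 and 152 FPKM in m1, m49, m138 and m145 and at 48.9, 43.2, 63.7 and 42.2 FPKM in m35, m106, m114 and m125. All PN98 mice were below all PN21 mice, and the mean fell from 128.6 ± 23.3 to 49.5 ± 9.92 FPKM (log2 fold change -1.36, SE 0.20, limma, adjusted p = 0.0121).

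Also called on this list were *Ncmap*, a membrane protein of non-compact myelin, *Mal*, a lipid raft protein of myelin, and *Cldn19*, a claudin of Schwann cell tight junctions, which fell with log2 fold changes of -1.54, -1.24 and -1.12 (limma, adjusted p between 0.0328 and 0.0484). *Mag* (myelin-associated glycoprotein) missed the threshold with -0.82 (limma, adjusted p = 0.0705), although the ages did not overlap. *Arhgef10* was the one tested gene above 0, at 0.09 (SE 0.25). Among the 8 genes below the minimum, *Ugt8a*, the enzyme that makes the myelin lipid galactosylceramide, and *Pou3f1*, a factor of promyelinating Schwann cells, had 1.27 ± 0.474 and 0.302 ± 0.0704 FPKM at PN21 and 0.155 ± 0.105 and 0.0792 ± 0.0321 FPKM at PN98. Both were named after their values were seen. Without m35, 8 of the 10 tested genes of the list were called lower, where 17.9% of all genes were. Leaving out any one of the other mice cut the 5 calls, to 3 without m49 and to 2 without m1, m138, m145, m106, m114 or m125.

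Most genes of non-myelinating and immature Schwann cells were lower at PN98 by sign, while the called one was higher. Without the minimum, 13 of the 15 genes had a negative log2 fold change, against 64.6% of all 27456 genes, with no call lower, and the other 2, *Scn7a* and *Cdh19*, were called higher. *Ncam1*, *Erbb3*, *Gjc3* and *Foxd3*, all below the minimum, were lower in every PN98 mouse than in every PN21 mouse. Their means over all mice lay between 0.226 and 0.722 FPKM. *Gfap*, *Sox2*, *Gfra3* and *Kcna1*, also below the minimum, overlapped between the ages. The share of all genes with such a separation is not given here, so that no conclusion is drawn from it. With the minimum 7 of the 15 could be tested, and 5 had a negative and 2 a positive log2 fold change (median -0.57). Under either scaling of the libraries 4 were negative. Of all genes tested, 67.0% had a negative log2 fold change as deposited and 2.36% were called higher. The sodium channel gene *Scn7a*, which neurons also express, rose from 6.89 ± 1.16 to 17.02 ± 3.95 FPKM and was the only call (log2 fold change 1.18, SE 0.19, limma, adjusted p = 0.0171). The call was lost without m1, m138 or m106, and without m35 there were 2 calls higher and 1 lower. *Cdh19*, a cadherin of Schwann cell precursors, had 0.890, 0.541, 0.951 and 0.519 FPKM at PN21 and 1.81, 1.90, 2.05 and 1.31 FPKM at PN98 (log2 fold change 0.68, adjusted p = 0.0508). Every PN98 mouse was above every PN21 mouse, the opposite order to *Mbp*. *Fabp7*, a fatty acid binding protein of immature glia, and *Cdh2*, N-cadherin, had log2 fold changes of -1.14 and -0.60 (limma, adjusted p = 0.0514 and 0.118).

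**Figure D3:**
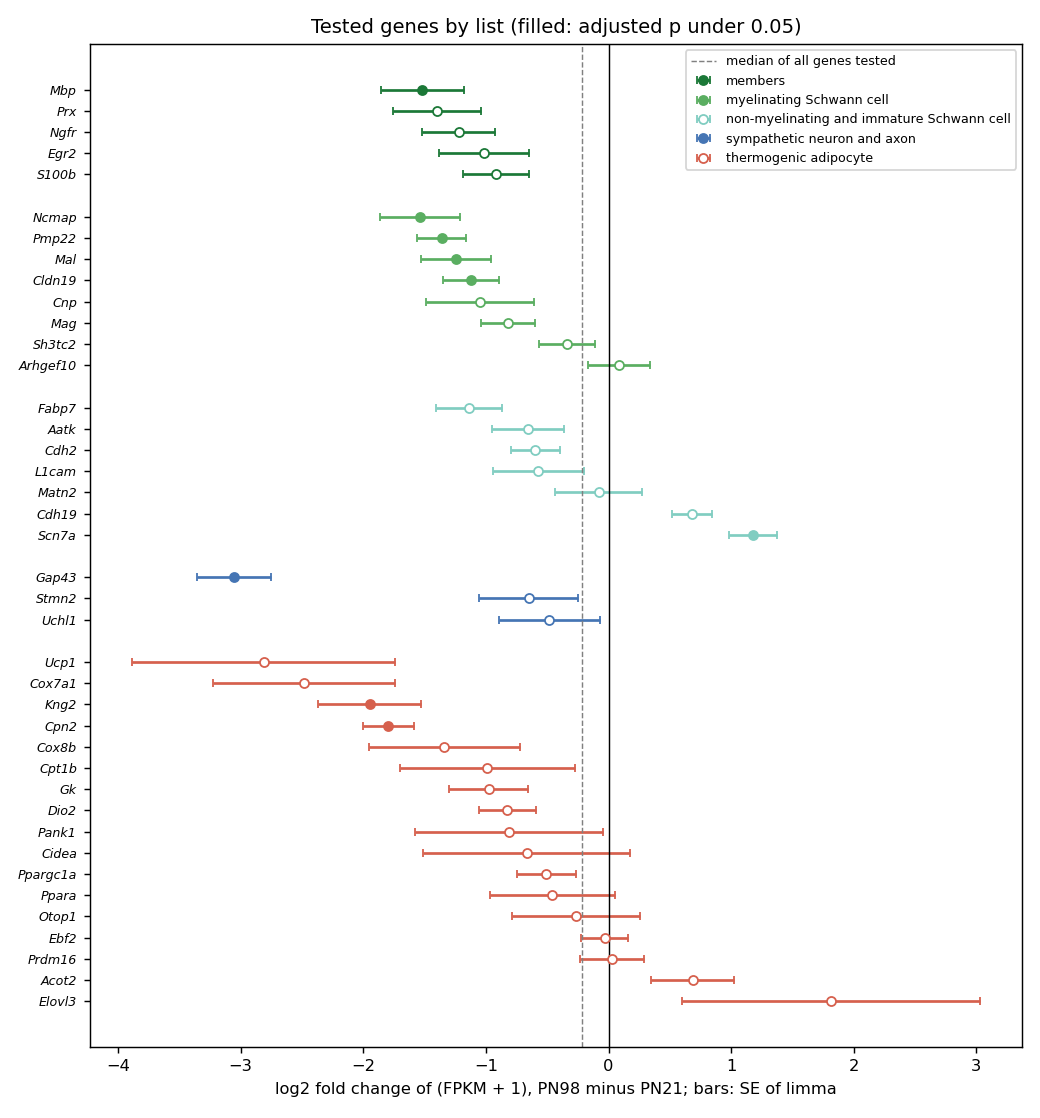
Log2 fold change of FPKM + 1 (PN98 minus PN21) with the SE of limma for the tested genes of the members, the 2 Schwann cell lists, the sympathetic list and the thermogenic list. Filled points have an adjusted p under 0.05, the dashed line is the median of all genes tested at -0.21, and all but 1 of the plotted myelinating Schwann cell genes lie below 0.

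Of the genes that make or take up noradrenaline, *Dbh* and *Slc6a2* were near 0 and *Th* at 0, while other genes listed for sympathetic neurons and axons were detected. Which cells these transcripts came from, and whether their levels follow the amount of sympathetic nerve in the depot, was not tested. Of 20 genes of the sympathetic neuron and axon list, 19 were in the table and 3 had a mean FPKM of at least 1. *Dbh*, the enzyme of the last step to noradrenaline, was at most 0.0504 FPKM in any mouse, and *Slc6a2*, the noradrenaline transporter, at most 0.0724 FPKM. *Ddc*, the decarboxylase after TH in the same pathway, which other cells also make, was at 0.713 to 1.11 FPKM at PN21 and lower in all PN98 mice, with 0.362 ± 0.202 FPKM. It was named after its values were seen. *Slc18a2*, the vesicular monoamine transporter, had 0.583 ± 0.0832 FPKM at PN21 and 0.534 ± 0.204 FPKM at PN98. The gene that was called was *Gap43*, a protein of growing axons that immature Schwann cells also make. It had 14.1, 8.38, 8.602 and 20.4 FPKM in m1, m49, m138 and m145 and 0.358, 0.378, 1.17 and 0.511 FPKM in m35, m106, m114 and m125. All PN98 mice were far below all PN21 mice, 21.2-fold in the mean (log2 fold change -3.05, SE 0.30, limma, adjusted p = 0.00285). The other tested genes, *Stmn2* and *Uchl1*, had log2 fold changes of -0.65 and -0.48 (limma, adjusted p = 0.318 and 0.462). Without m35 2 of the 3 tested genes were called lower. The share of all genes called lower was 2.94%, and 17.9% without m35.

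Neurotrophic ligands and receptors were split as well. Of 21 genes 10 were tested, with 3 called higher and none lower by limma (2.36% of all genes were called higher). *Nrg4*, a neuregulin that adipocytes secrete, rose from 39.3 ± 2.81 to 81.5 ± 13.7 FPKM. *Ntrk2*, the receptor of BDNF, rose from 13.4 ± 2.28 to 32.1 ± 6.75 FPKM, and *Sort1*, sortilin, from 35.6 ± 7.52 to 76.2 ± 15.3 FPKM. Their adjusted p lay between 0.0158 and 0.029. The 3 calls became 0 without m138 and 1 without m106. Of the S100 family, 8 genes other than *S100b* were tested, and *S100a8* and *S100a9*, which neutrophils make, were called lower (log2 fold change -2.67 and -4.44, limma, adjusted p = 0.0465 and 0.00145). The share of all genes called lower was 2.94%. Without m1, m49, m138, m145, m106 or m114 only 1 of the 8 was called. *S100a4* and *S100a10* had -1.33 and -0.46 without a call (limma, adjusted p = 0.191 and 0.326).

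Thermogenic genes were not spread alike over the PN98 mice. *Ucp1* was at 544, 650, 586 and 559 FPKM in the PN21 mice and at 7.41, 278, 56.3 and 356 FPKM in m35, m106, m114 and m125. The PN21 mice were close together and the PN98 mice, although all lower, spanned from 7.41 to 356 FPKM (log2 fold change -2.81, SE 1.07, limma, adjusted p = 0.149). *Cidea*, a lipid droplet protein of brown adipocytes, was at 480, 405.5, 415 and 631 FPKM at PN21 and at 55.2, 721, 187 and 1064 FPKM at PN98, so that the PN98 mice lay on both sides of the PN21 mice. *Ebf2*, a transcription factor of brown adipocyte precursors named after its values were seen, stayed between 5.12 and 7.34 FPKM at PN98. Of 18 thermogenic genes 17 were tested and 2 were called lower, *Cpn2* and *Kng2*, with log2 fold changes of -1.79 and -1.95 (limma, adjusted p = 0.00552 and 0.0379). Of all genes tested, 2.94% were called lower. The 2 calls fell to 1 when m1, m49, m138, m145, m106 or m114 was left out. *Dio2*, the enzyme that activates thyroid hormone, and *Cox7a1*, a subunit of the respiratory chain, had -0.82 and -2.48 without a call (adjusted p = 0.0799 and 0.0909).

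Within PN98 the mouse with the most *Ucp1* and *Cidea*, m125, had the least of all 6 detected members. It was also low on other genes. Its median of ratios factor was 0.771, against 0.909 to 1.152 in the other PN98 mice. Its lymphocyte and macrophage sums, 31.7 and 246.6 FPKM, were the lowest of PN98 too. What this adds to the order of the mice was not tested. From high to low, *Ucp1* and *Cidea* ordered the PN98 mice as m125, m106, m114 and m35. *Sox10* and *Ngfr* ordered them as m35, m106, m114 and m125, and *Mbp* and *Prx* as m106, m35, m114 and m125. *S100b* ordered them as m114, m106, m35 and m125. It had the lowest mouse in common with these Schwann cell genes, and the highest with *Pmp22*, *Gap43*, *Cdh19*, *Scn7a* and *Adipoq*. *Pmp22* ordered the PN98 mice as m114, m35, m106 and m125, and so shared both ends with *S100b*, and *Cdh19* gave the same order as *S100b* at PN98 only. At PN21 the *S100b* order was m145, m1, m49 and m138, that of *Sox10* and *Prx* m145, m1, m138 and m49, and that of *Ucp1* m49, m138, m145 and m1. *Pmp22* shared the *S100b* order at PN21. *Cdh19* ordered the PN21 mice as m138, m1, m49 and m145, with the ends of *S100b* reversed.

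**Figure D4:**
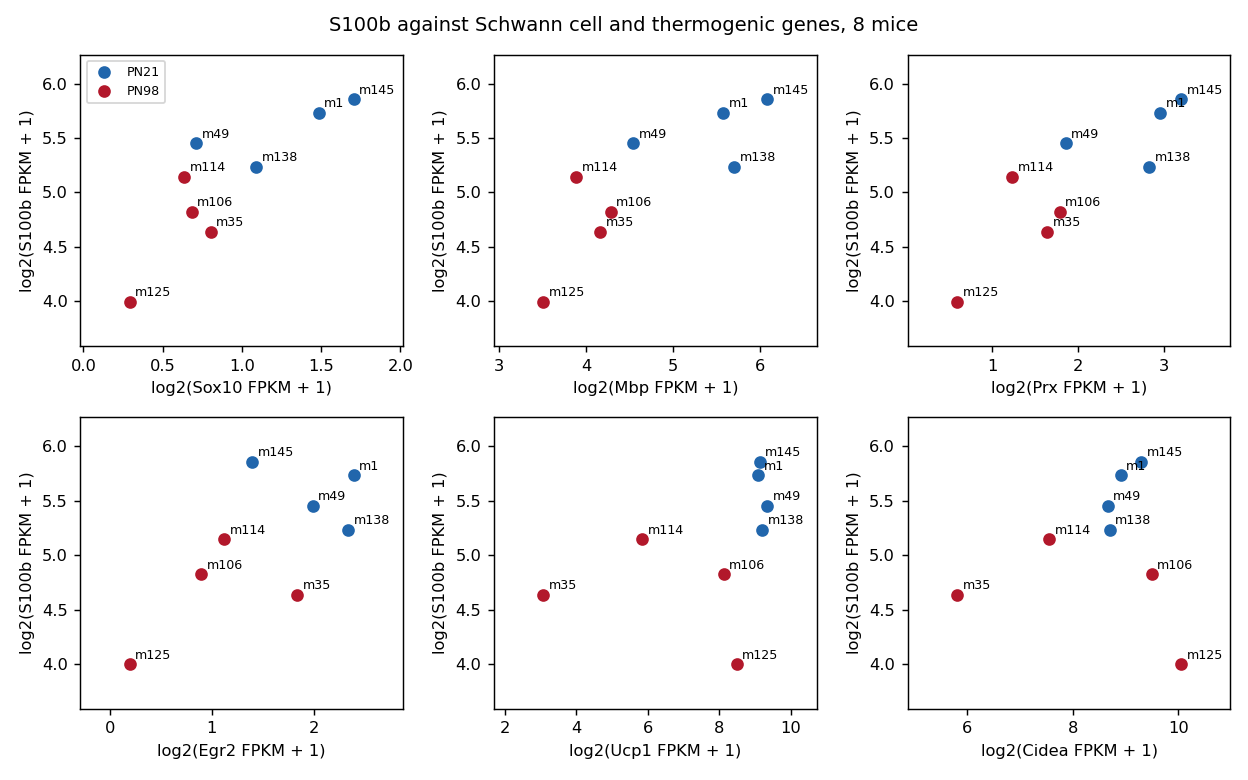
Log2(*S100b* FPKM + 1) on the vertical axis against log2(FPKM + 1) of 4 Schwann cell genes and of *Ucp1* and *Cidea*, 1 point per mouse, PN21 in blue and PN98 in red. For the Schwann cell genes m125 is at the lower left in each panel, and for *Ucp1* and *Cidea* it has the lowest *S100b* and the highest PN98 level of the thermogenic gene.

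Whether *S100b* varied with these genes between mice of the same age was tested on log2(FPKM + 1) after each age had been centred on its own mean. Pearson's r was 0.63 with *Sox10* (rho 0.62, n = 8), with an exact permutation p of 0.0677 for r and 0.116 for rho over all pairings within ages, and a Benjamini-Hochberg value of 0.585 over the 10 genes compared. Without m49 and m145, the mice farthest from the median of *Sox10*, r was 0.77. With *Prx* and *Mbp* r was 0.56 and 0.43 (rho 0.52 and 0.40). Without m49 and m125, the mice farthest out on both genes, these values became -0.03 and -0.01, so that they rested on those mice. With *Egr2* and *Ngfr* r was 0.25 and 0.08 (rho 0.05 and 0.02), and without the farthest pair -0.43 and 0.07.

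With *Ucp1* and *Cidea* r was -0.32 for both (rho -0.50 and -0.19), and without m35 and m125 -0.48 and -0.13. With *Adipoq*, adiponectin, it was 0.39 (rho 0.21) and without m49 and m114 0.22. Exact permutation p of the genes after *Sox10* lay between 0.175 and 0.87 for r and between 0.233 and 0.979 for rho, and no relation passed the correction, the lowest Benjamini-Hochberg value being 0.585 for r and 0.715 for rho. *Th*, without variation, gave no value. With 4 mice per age the data thus did not show whether *S100b* varied with the Schwann cell genes or with the thermogenic genes.

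The ratio of *S100b* to each partner within a library does not depend on the scaling of that library, apart from the pseudocount of 1. The mean log2 ratio of *S100b* to *Sox10* differed by -0.27 between the ages, to *Prx* by 0.48 and to *Mbp* by 0.60 (two-sided exact permutation p = 0.229, 0.171 and 0.20), each against SDs of 0.28 to 0.61 within an age. Each of the 3 differences was smaller than the larger SD of its ratio at the 2 ages. The sign for *Sox10*, which lay at 0.224 to 2.26 FPKM, depended on the pseudocount. With a pseudocount of 0.1 the difference was 0.31. In mean FPKM *S100b* was 1.88-fold and *Sox10* 2.73-fold lower at PN98. *Mbp* was here the sum of both groups of starts. In log2(FPKM + 1) its downstream group alone differed by -2.23 between the ages, and *S100b* by -0.92. The ratio of *S100b* to that group was not tested. The ratio to *Adipoq* was below all PN21 mice in all 4 PN98 mice, with a difference of -2.36 (exact permutation p = 0.0286). Its Benjamini-Hochberg value over the 8 ratios tested was 0.114, so that it did not pass the correction.

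The ratio of *S100b* to *Ucp1* was narrow at PN21 and wide at PN98. It was -3.36, -3.89, -3.96 and -3.27 in m1, m49, m138 and m145, and 1.57, -3.30, -0.69 and -4.48 in m35, m106, m114 and m125. At PN98, 2 mice were above and 1 mouse was below all PN21 mice, and the difference of 1.89 was smaller than the SD of 2.71 at PN98 (exact permutation p = 0.314). The ratio to *Cidea* had an SD of 0.15 at PN21 and 2.20 at PN98, with 2 PN98 mice above and 2 below all PN21 mice. The SDs of the ratios to *Sox10*, *Mbp* and *Prx* at PN98 were 0.36 to 0.42.

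Among all 16095 genes, likeness to *S100b* and *Sox10* was measured as Pearson's r of log2(FPKM + 1), as a description of 8 mice that share an age difference. Over all 8 mice the genes most like *S100b* included *Zmynd19*, *Tubb4a*, *Gm14480* and *Gpr153*, with r from 0.963 to 0.967. *Prx* ranked 453, *Mbp* 725, *Ucp1* 7239 and *Cidea* 10972. The genes most like *Sox10* were *Cadm4*, *Prcc*, *Usp42*, *Vstm4* and *Sema3b* (r from 0.973 to 0.981), and here *Prx* ranked 17 and *Mbp* 32, with *Ucp1* at 8108. *Cadm4*, a cell adhesion molecule of Schwann cells that holds on to the axon, was at 7.38, 2.66, 5.33 and 8.45 FPKM in the PN21 mice and at 2.86, 2.89, 2.13 and 1.74 FPKM in the PN98 mice. It shared with *Sox10* the low PN21 mouse m49. After centring on age, *Gm12219*, *Anxa5*, *Ipo4*, *Slc6a13* and *Tbc1d19* were most like *S100b* (r from 0.941 to 0.955), and *Mdk-ps1*, *Etv5*, *Efhd1*, *Cracr2b* and *Mag* most like *Sox10* (r from 0.963 to 0.994).

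Markers of other cell types moved with age and with single mice, and their part in the results on the members was not tested. The 12 genes of the lymphocyte and lymph node list, all above 0 in all mice, summed to 1133 to 2528 FPKM at PN21 and to 1396, 246, 72.0 and 31.7 FPKM in m35, m106, m114 and m125. This is the order of the PN98 mice on *Sox10* and *Ngfr*, and m35 alone reached the PN21 range. All 12 had a negative log2 fold change, and *Glycam1*, of lymph node vessels, was called (-6.11, limma, adjusted p = 0.0213). Of all genes tested, 67.0% had a negative log2 fold change and 2.94% were called lower. Without m35 10 of the 12 were called, where 17.9% of all genes were called lower. None of the 12 was called without m1, m49, m138, m145, m106 or m114. The 9 measured skeletal muscle genes summed to 62.7 to 445.7 FPKM at PN21 and to 482 to 2989 FPKM at PN98, highest in m106, with *Tcap*, *Actn3* and *Atp2a1* called higher. The 8 white adipocyte genes summed to 13320 to 24800 FPKM at PN21 and to 35370 to 46660 FPKM at PN98, and 3 were called higher, *Cidec*, *Adipoq* and *Lipe*. The share of all genes called higher was 2.36%. The 12 genes of mammary and skin epithelium summed to 7.06 to 48.4 FPKM at PN21, highest in m49, and to 1.95 to 3.29 FPKM at PN98, with *Krt14* listed at 0 in all PN98 mice and *Ltf* and *Epcam* called lower. The 9 macrophage genes gave no call and summed to 535.5 to 865 FPKM at PN21 and 247 to 957.5 FPKM at PN98, and of 7 melanocyte genes the one tested, *Pmel*, gave no call. With single mice left out, the calls numbered 0 to 6 for muscle, 2 to 5 for white adipocytes and 0 to 2 for epithelium.

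**Figure D5:**
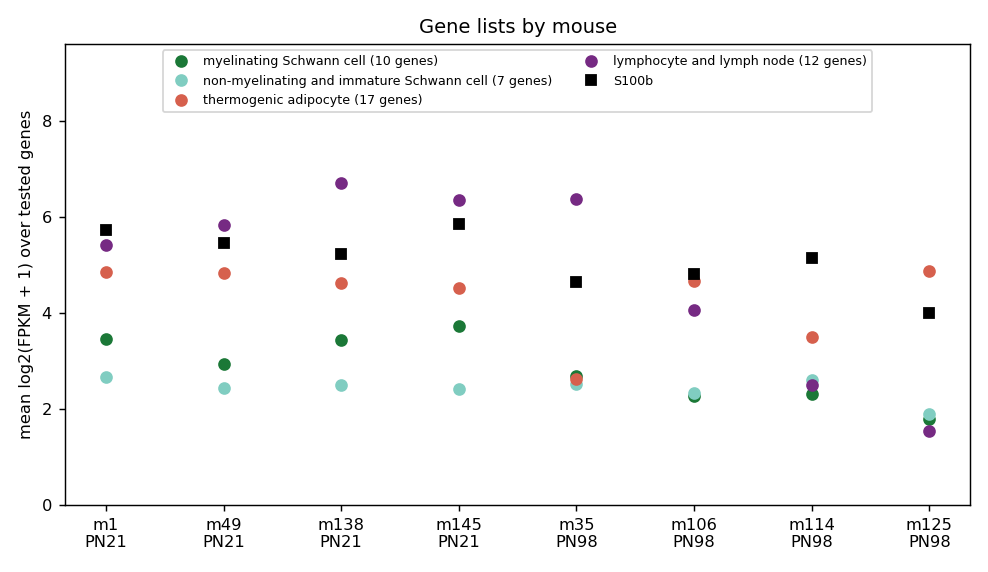
Mean log2(FPKM + 1) over the tested genes of 4 lists and log2(FPKM + 1) of *S100b* in each mouse. The myelinating Schwann cell genes lie between 2.93 and 3.73 at PN21 and between 1.79 and 2.69 at PN98, while the thermogenic genes range from 2.62 in m35 to 4.89 in m125 and the lymphocyte genes from 6.37 in m35 to 1.54 in m125 within PN98.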

How the data were processed

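ING WAT poly(A)+ RNA of 4 PN21 and 4 PN98 mice was sequenced on a HiSeq with a strand-specific library kit. The authors used CASAVA 1.8.2 and FastQC, mapped paired reads with STAR 2.3.0 on mm10 and quantified transcripts with Cufflinks 2.1.1. The deposited values are FPKM per transcript, and many lost their decimal mark. Of 91969 transcripts, 40441 had lost a mark, which was restored from the deposited standard deviation, average and score, which the authors computed over more libraries than the 8 listed. Of the restored ones, 5016 also stood with intact decimals in the deposited table of the comparison, and all 5016 were equal in the 8 mice. 20 were left out. That table's own p-values and fold changes were not used. FPKM were summed per gene with GENCODE vM21, and log2(FPKM + 1), which understates changes of low genes, was compared with limma 3.58.1 (R 4.3.3) for 16095 genes with a mean of at least 1 and Benjamini-Hochberg adjustment. An adjusted p under 0.05 is a call. The limma step was tested on simulated data. Single values were compared with two-sided exact permutation tests. Members and lists were chosen with earlier results of these data known. Named genes are the members, their partners, the 4 genes of lowest p and all calls of the nerve, thermogenic and S100 lists, defining markers and the genes most like *S100b* or *Sox10*. For the other lists the called genes are named. Alternatives were another pseudocount, no minimum, 2 scalings, array weights, an intensity trend and leaving out each mouse. Some genes of these lists are not reported here, and adjusted values and list counts still include them.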

Additional observations from a re-analysis of the deposited data

How the results depend on the processing

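The number of members called lower at the gene level, 1 as reported, was 0 with a pseudocount of 0.1, without the minimum on FPKM and with scaling to the summed FPKM of nuclear genes, 2 with median of ratios scaling and 5 with array weights, and lay between 0 and 4 when each mouse was left out in turn, the 4 without PN98 mouse m35 and 2 without PN21 mouse m49. The number of member transcripts called, 0 as reported, was 1 on log2(FPKM + 1) with zeros kept and lay between 0 and 1 with each mouse left out, 1 without m35. The log2 fold change of *S100b* stayed between -1.08 and -0.66 under all settings run, and its adjusted p was under 0.05 only with array weights (-0.81). The ratio of *S100b* to *Sox10* changed sign with a pseudocount of 0.1 (0.31). Age-centred relations of *S100b* changed sign with median of ratios scaling for *Egr2*, *Ngfr*, *Ucp1* and *Cidea* (r of -0.068, -0.25, 0.061 and 0.064). With each mouse left out they ranged from -0.59 to 0.52 for *Egr2*, from -0.51 to 0.34 for *Ngfr*, from -0.71 to 0.22 for *Ucp1* and from -0.59 to 0.33 for *Cidea*, with the sign turned without m125. Without centring, where the ages form separate groups on *S100b*, r was 0.84 with *Sox10*, 0.82 with *Mbp*, 0.85 with *Prx*, 0.40 with *Ucp1*, 0.028 with *Cidea* and -0.69 with *Adipoq*, and these values hold the age difference. The cause of these changes was not tested. Counts over all genes moved by more than 1.5 times with array weights (4639 calls against 853) and without m35 (3540), and fell to 210 to 347 without m1, m49, m138, m145, m106 or m114, lowest without m106. Of all calls, 55.5% were lower at PN98 as deposited, 37.3% with median of ratios scaling, 32.3% with scaling to nuclear genes and 75.3% with array weights. The counts of called list genes with single mice left out were added after the data were seen. No paired analysis was possible because the PN21 and PN98 mice were different animals and the labels give no pairing between them. Depth is unknown, so that no counting error stands behind the low values of *Sox10*, *Egr2* and *Ngfr*.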
